A study of Homo sapiens with 6 samples.

Results

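The interferon regulatory factor (IRF) genes IRF1, IRF2, IRF3, IRF4, IRF5, IRF7, IRF8 and IRF9 were followed here together with BATF2, an interferon-inducible AP-1 factor. The members were the rows of the deposited count table whose gene symbol equalled one of these names, which gave 9 of 60662 genes. All 9 passed the filter on low counts. IRF proteins are transcription factors that bind, through a conserved DNA-binding domain, interferon-stimulated response elements and related sites in the promoters of antiviral and antigen-presentation genes. IFN-gamma acts through its receptor and the kinases JAK1 and JAK2 on genes with gamma-activated sites (GAS), and IRF1 is among the first genes switched on. IRF9 serves as the DNA-binding subunit of ISGF3, a complex that also holds STAT2.

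The cells were DU-145, an established human prostate cancer line, with a short hairpin RNA that targets MUC1 under tetracycline control (named tet-MUCshRNA by the submitters). The DOX-positive group had 3 cultures given doxycycline (DOX) for 7 days, which switches the hairpin on, and the DOX-negative group had 3 cultures given vehicle for 7 days. Both groups were stimulated with IFN-gamma at 10 ng/ml for 24 hours, so the comparison concerns IFN-gamma-treated cells with and without the hairpin, and says nothing of the response to IFN-gamma itself. Cells with DOX and a control hairpin were not analysed here, so DOX and the hairpin cannot be told apart, and the labels do not say whether the line was 1 clone. RNA was measured as polyadenylated, strand-specific libraries of whole cultures, in which fewer cells expressing a gene and less RNA per cell cannot be told apart.

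Library totals lay between 105358357 and 150921436 reads in the DOX-positive group and between 87739734 and 138844816 in the DOX-negative group. MUC1, the target of the hairpin, averaged 1.39 ± 0.12 CPM (counts scaled to a common library size) in DOX-positive cells and 21.5 ± 0.96 CPM in DOX-negative cells (SD, n = 3 each), which goes with the labels. All 5 epithelial markers examined (KRT8, KRT18, KRT19, CDH1 and EPCAM) were expressed in both groups and rose in DOX-positive cells (edgeR adjusted p under the threshold of 0.05), and their log2 fold changes had a median of 1.39. The prostate luminal markers KLK3, KLK2 and HOXB13 were at or near 0. Of 11 leukocyte markers, CD3E and MS4A1 had 0 reads and PTPRC, LYZ and SPI1 stayed under 0.1 CPM in group means. Of the 5 tested by edgeR, CD79A and CSF1R rose and CD14 and ITGAM fell, while FCER1G did not pass. CSF1R averaged 1.19 CPM in DOX-positive cells and 0.54 CPM in DOX-negative cells, and CD14 averaged 0.29 CPM in DOX-positive cells and 1.02 CPM in DOX-negative cells. ITGAM (0.06 CPM in DOX-positive cells, 0.19 CPM in DOX-negative cells) was kept by the filter through its DOX-negative libraries alone. The summed level of that list was 26.9 to 29.6 CPM in DOX-positive libraries and 3.14 to 3.45 CPM in DOX-negative libraries, of which CD79A gave on average 25.8 CPM in DOX-positive cells and 0.74 CPM in DOX-negative cells. The part of these shifts in the results that follow was not tested.

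Promoter sequences (250 bases before to 50 after an annotated start) were in the RefSeq table for 6 of the 9 members, IRF1, IRF4, IRF5, IRF8, IRF9 and BATF2. They are shown for IRF1 and IRF9, the members in whose windows a GAS was found. The windows of IRF5, IRF8 and BATF2 did not cover the 5′ end of the gene, as described below. The GAS was searched as TTCNNNGAA and the interferon-stimulated response element (ISRE) as GAAA, any 2 bases and GAAA again, each on both strands. Capitals mark the GAS match, and each sequence is the 250 bases before the start, 5′ to 3′ on the gene's own strand, on GRCh38.p14 at chr5:132490774-132491023 on the minus strand for IRF1 and at chr14:24161015-24161264 on the plus strand for IRF9.
IRF1: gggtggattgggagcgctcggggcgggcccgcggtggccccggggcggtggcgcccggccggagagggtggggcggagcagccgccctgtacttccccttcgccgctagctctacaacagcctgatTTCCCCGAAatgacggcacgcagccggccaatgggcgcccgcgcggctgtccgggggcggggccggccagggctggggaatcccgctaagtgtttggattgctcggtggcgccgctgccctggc
IRF9: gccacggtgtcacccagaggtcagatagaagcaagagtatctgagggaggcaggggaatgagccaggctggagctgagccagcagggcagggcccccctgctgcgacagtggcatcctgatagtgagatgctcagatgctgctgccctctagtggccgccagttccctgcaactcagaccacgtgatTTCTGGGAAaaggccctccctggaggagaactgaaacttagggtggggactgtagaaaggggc
The match TTCCCCGAA began 124 bases before the IRF1 start and TTCTGGGAA began 63 bases before the IRF9 start, both as given in RefSeq. The printed IRF9 sequence runs from 24161015 to 24161264, while the GENCODE 29 gene starts at 24161053. Most of that sequence, the match included, therefore lies inside the gene by GENCODE 29. Over all 35116 promoter windows of the same length, 7.66% held a GAS and 3.57% an ISRE, and no ISRE match lay in the 10 windows of the 6 members. The IRF8 windows began at 85902580 and 85902765, inside the gene and downstream of its GENCODE 29 start at 85898803. The BATF2 window, 64990228 to 64990527, also lay inside the gene, whose 5′ end on the minus strand is at 64997045. The first IRF5 window began at 128937677, also downstream of its GENCODE 29 start at 128937612. Promoters at these 5′ ends of IRF5, IRF8 and BATF2 were therefore not searched, and that of IRF9 only in part.

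Of the 9 members, 8 were lower in DOX-positive cells, 0 were higher, and IRF5 did not pass (edgeR quasi-likelihood test, adjusted p under 0.05). Over all 24695 genes tested 56.5% were called, 28.9% lower and 27.6% higher. IRF4 was kept by the filter on low counts through its DOX-negative libraries alone and so had to differ, and without it 7 of the 8 remaining members were lower. With IRF4 left aside, DESeq2 and limma-voom also called these 7 lower and 0 higher, as did an unadjusted edgeR p under 0.05. The median log2 fold change was -0.585 without IRF4 and -0.72 with it, against -0.04 for all genes tested. The 3 values of the DOX-positive group lay clear of the 3 of the DOX-negative group for 7 of the 8 members other than IRF4, and did so for 62.4% of all genes tested. Among these 8, at least 2-fold decreases were called for IRF7, IRF8 and BATF2, where 9.38% of all genes tested met that criterion. IRF9 brought their number with at least a 1.5-fold decrease to 4, against 16.2% of all genes tested.

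**Figure D1:**
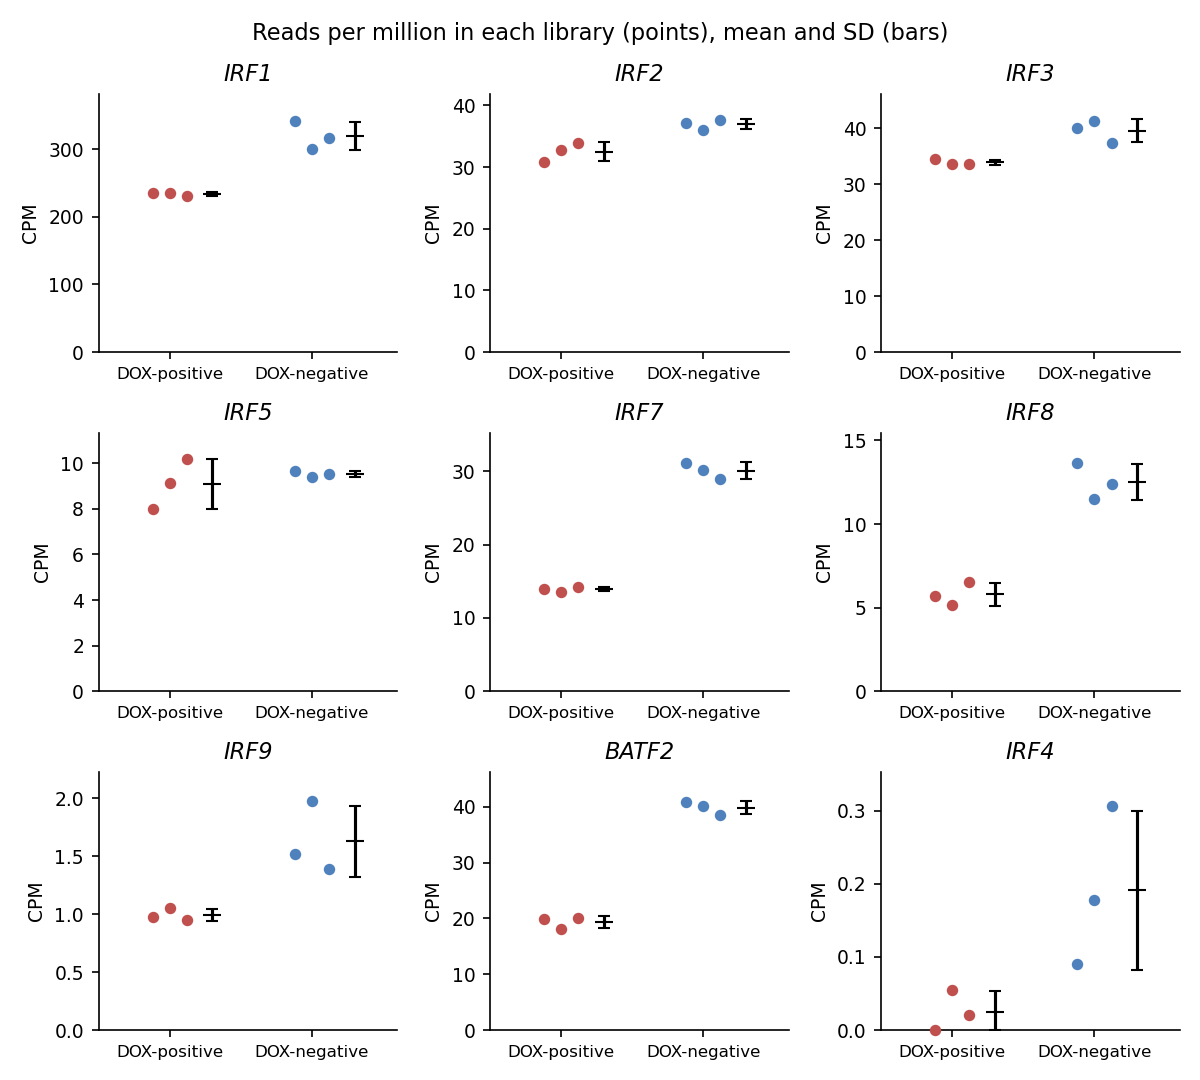
CPM (TMM-scaled; vertical axis from 0) of each member in the 3 DOX-positive libraries (left, red) and the 3 DOX-negative libraries (right, blue), with the mean and SD beside the points; the lower SD bar of IRF4 in DOX-positive cells is drawn to 0. The groups are apart in each panel except that of IRF5, where the DOX-positive values of 7.98 to 10.2 CPM span the DOX-negative ones.

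IRF1 and IRF2 bind the same elements, IRF1 as an activator and IRF2 mostly as a repressor. IRF1 (ENSG00000125347.14, chromosome 5, 132481609 to 132490798 on the minus strand, GENCODE 29 on GRCh38) read 236, 234 and 231 CPM in DOX-positive libraries, against 342, 301 and 316 CPM in DOX-negative libraries. The groups did not overlap, and the DOX-negative libraries were the more spread out. The log2 fold change was -0.45 (95% interval -0.54 to -0.36, edgeR adjusted p = 6.25e-08). C5orf56, an RNA gene on the opposite strand, shares 22.0% of the exonic bases of IRF1. It read 13.4, 13.1 and 13.5 CPM in DOX-positive libraries and 21.6, 22.2 and 20.8 CPM in DOX-negative libraries, and fell by 0.69 on the log2 scale. The strand setting of the counting is not given in the sources used here, so reads from the shared bases may have been assigned to either gene or to none.

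IRF2 (ENSG00000168310.11, chromosome 4, 184387713 to 184474580, minus strand) read 30.8, 32.8 and 33.9 CPM in DOX-positive libraries, against 37.1, 36.0 and 37.7 CPM in DOX-negative libraries. Every DOX-positive value lay below every DOX-negative value, by a small margin. The log2 fold change was -0.18 (95% interval -0.27 to -0.10, edgeR adjusted p = 0.00079). Scaled by library size alone, which moved the log2 fold change of all genes by a median of -0.14, IRF2 stood at -0.33.

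IRF3, IRF7 and IRF5 act downstream of sensors of foreign nucleic acid. IRF3 is made constitutively and is activated by the kinase TBK1, IRF7 is itself an interferon-induced gene, and IRF5 is activated through MYD88 and the IRAK kinases. IRF7 (ENSG00000185507.21, chromosome 11, 612553 to 615999, minus strand) read 14.0, 13.6 and 14.3 CPM in DOX-positive libraries, against 31.2, 30.2 and 28.96 CPM in DOX-negative libraries. The gap between the groups was far wider than the spread within either. IRF7 fell 2.16-fold (log2 fold change -1.11, 95% interval -1.21 to -1.02, edgeR adjusted p = 2.19e-12).

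IRF3 (ENSG00000126456.16, chromosome 19, 49659569 to 49665875, minus strand) read 34.5, 33.6 and 33.6 CPM in DOX-positive libraries and 40.0, 41.3 and 37.4 CPM in DOX-negative libraries. The DOX-positive values were lower and nearly equal to each other. IRF3 fell by 0.22 on the log2 scale (95% interval -0.31 to -0.14, edgeR adjusted p = 0.00012). Its 5′ end overlaps BCL2L12, a BCL2-family gene on the opposite strand that shares 19.3% of the exonic bases of IRF3. BCL2L12 went the other way, with 19.5, 19.1 and 20.4 CPM in DOX-positive libraries and 17.8, 17.2 and 16.4 CPM in DOX-negative libraries (log2 fold change 0.20, edgeR adjusted p = 0.00226).

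IRF5 (ENSG00000128604.20, chromosome 7, 128937612 to 128950035, plus strand) read 7.98, 9.12 and 10.2 CPM in DOX-positive libraries and 9.68, 9.38 and 9.52 CPM in DOX-negative libraries. The DOX-positive libraries surrounded the DOX-negative ones, with 1 of them above all 3. The log2 fold change was -0.07 with a 95% interval from -0.23 to 0.10 (edgeR adjusted p = 0.491). The values are compatible with no change and with any change within that interval. With library size alone IRF5 was called lower (-0.21, edgeR adjusted p = 0.0289), and without DOX-positive replicate 1 its value was 0.03.

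IRF8 and IRF4 are best known from myeloid and lymphoid cells, where they bind DNA with ETS or AP-1 partners, and IRF8 is also induced by IFN-gamma. IRF8 (ENSG00000140968.11, chromosome 16, 85898803 to 85922609, plus strand) read 5.70, 5.16 and 6.51 CPM in DOX-positive libraries, against 13.6, 11.5 and 12.4 CPM in DOX-negative libraries. The highest DOX-positive value was below the lowest DOX-negative one, and the fall was 2.17-fold (log2 fold change -1.12, 95% interval -1.30 to -0.93, edgeR adjusted p = 9.66e-09).

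IRF4 (ENSG00000137265.15, chromosome 6, 391739 to 411447, plus strand) was close to the detection limit. It had 0, 8 and 2 reads in DOX-positive libraries, against 9, 26 and 28 reads in DOX-negative libraries. A count of 0 allows up to 3 reads, or 0.0285 CPM in the DOX-positive library concerned, and covers counting error only. IRF4 passed the filter on low counts through the DOX-negative libraries alone, of which 3 reached the cutoff of 0.0928 CPM, against 0 DOX-positive libraries. A gene kept in this way had to differ, so its log2 fold change of -2.72 (95% interval -4.19 to -1.25, edgeR adjusted p = 0.00312) is a description. That value was -4.11 without DOX-positive replicate 2 and -2.20 without DOX-positive replicate 1.

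BATF2, a bZIP factor of the AP-1 group that was found in mouse macrophages to act together with IRF1, has no IRF-type DNA-binding domain. BATF2 (ENSG00000168062.10, chromosome 11, 64987943 to 64997045, minus strand) read 19.9, 18.2 and 20.1 CPM in DOX-positive libraries, against 40.7, 40.1 and 38.5 CPM in DOX-negative libraries. The values were tight within each group. The fall was 2.05-fold (log2 fold change -1.04, 95% interval -1.13 to -0.95, edgeR adjusted p = 4.2e-12), and the intervals of BATF2, IRF7 and IRF8 overlapped one another.

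IRF9 (ENSG00000213928.9, chromosome 14, 24161053 to 24166565, plus strand) had few reads in every library. It had 103, 152 and 94 reads in DOX-positive libraries, or 0.98, 1.05 and 0.95 CPM, against 151, 290 and 127 reads in DOX-negative libraries, or 1.52, 1.98 and 1.39 CPM. The groups did not overlap, and DOX-negative replicate 2 stood highest. IRF9 fell by 0.72 on the log2 scale (95% interval -1.08 to -0.36, edgeR adjusted p = 0.00163).

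The level of IRF9 in this table is uncertain. In GENCODE 29 the gene AL136295.5, on the same strand, spans IRF9 and shares 48.4% of its exonic bases and 88.9% of its coding bases, 1238 of 1392. Many counting schemes discard a read that falls on exons of more than one gene, and the treatment of such reads is not given in the sources used here. AL136295.5 itself read 0.10, 0.09 and 0.07 CPM in DOX-positive libraries and 0.13, 0.16 and 0.08 CPM in DOX-negative libraries. RNF31, the upstream neighbour whose locus AL136295.5 also overlaps, averaged 0.16 ± 0.06 CPM in DOX-positive cells and 0.34 ± 0.07 CPM in DOX-negative cells. None of the other 8 members shares exonic bases with a gene on its own strand. The part of the overlap in the low count of IRF9 was not tested.

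**Figure D2:**
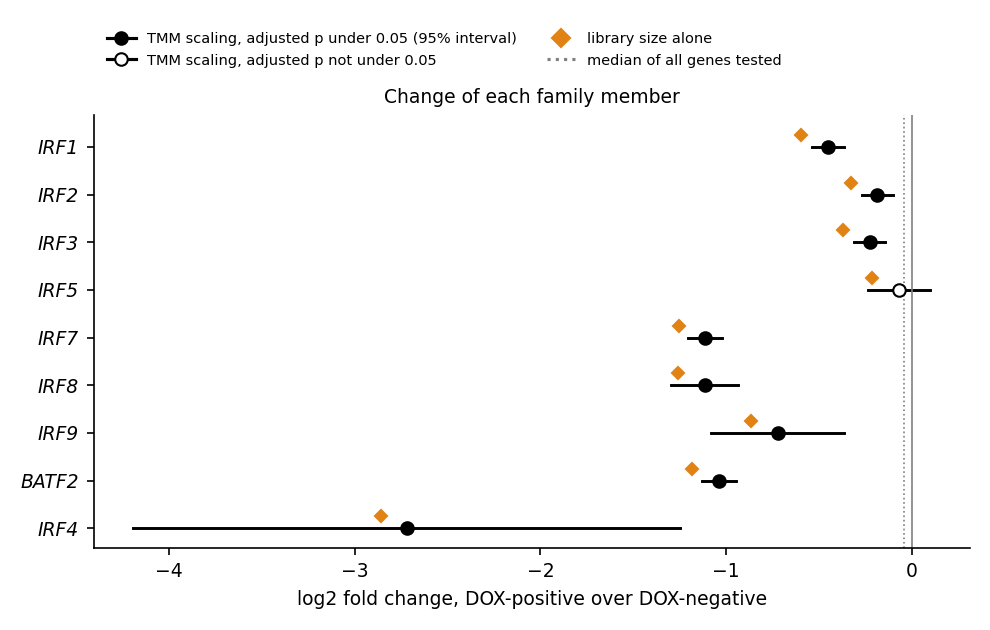
Log2 fold change of each member, DOX-positive over DOX-negative, from edgeR with TMM scaling (circles, with 95% intervals; filled where the adjusted p was under 0.05) and with library size alone (orange diamonds); the solid line marks 0 and the dotted line the median of all genes tested. IRF7, IRF8 and BATF2 lie together near -1.1, IRF1, IRF2 and IRF3 between -0.45 and -0.18, and the interval of IRF5 includes 0.

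Levels were compared between genes per length, as TPM (length-corrected values with the same sum in each library) computed from the counts and the deposited gene lengths. In DOX-positive cells the order was IRF1 (96.4 ± 1.5 TPM), IRF2 (33.9 ± 2.0), IRF3 (28.6 ± 0.2), BATF2 (22.1 ± 1.0), IRF7 (17.1 ± 0.4), IRF5 (6.43 ± 0.84), IRF8 (3.87 ± 0.44), IRF9 (0.89 ± 0.06) and IRF4 (0.01 ± 0.02), as mean TPM ± SD with n = 3. In DOX-negative cells it was IRF1 (153 ± 16 TPM), BATF2 (52.7 ± 2.8), IRF2 (44.8 ± 2.6), IRF7 (43.0 ± 2.7), IRF3 (38.8 ± 1.9), IRF8 (9.74 ± 1.22), IRF5 (7.82 ± 0.43), IRF9 (1.69 ± 0.26) and IRF4 (0.12 ± 0.07). Neighbours in these orders had separate ranges, except IRF2 and IRF7 in DOX-negative cells. In DOX-positive cells IRF2 stood above BATF2, IRF3 above BATF2 and IRF7, and IRF5 above IRF8. These pairs stood the other way round in DOX-negative cells. The place of IRF9 is subject to the overlap described above, and TPM carries no correction for library composition. The orders, and the pairs that changed places, also depend on the deposited lengths.

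Within the family's summed TPM, IRF1 made up 46.1% ± 0.9 in DOX-positive cells and 43.5% ± 1.4 in DOX-negative cells (SD, n = 3 each). IRF2 and IRF3 took 16.2% ± 0.7 and 13.7% ± 0.3 in DOX-positive cells, against 12.7% ± 0.5 and 11.0% ± 0.7 in DOX-negative cells. BATF2 and IRF7 took 10.5% ± 0.5 and 8.18% ± 0.11 in DOX-positive cells, against 15% ± 0.4 and 12.2% ± 0.3 in DOX-negative cells. The makeup therefore held larger shares of IRF1, IRF2 and IRF3, and smaller shares of BATF2 and IRF7, in the DOX-positive cultures. These differences in share were not tested.

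**Figure D3:**
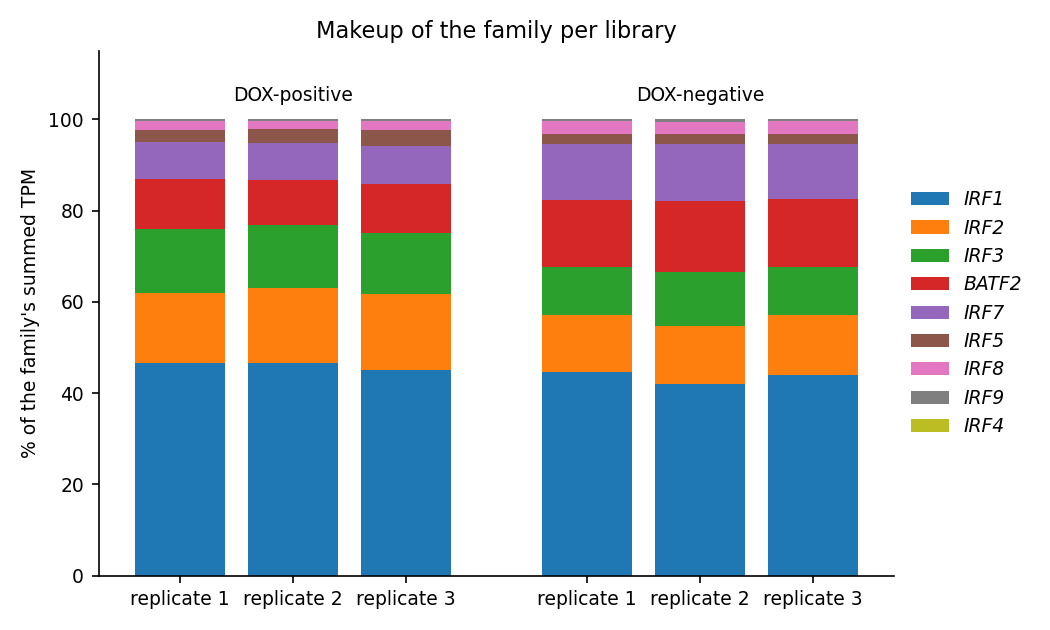
Share of each member in the family's summed TPM (vertical axis, %), one stacked bar per library, DOX-positive libraries on the left and DOX-negative libraries on the right. IRF1 fills 45.0 to 46.6% of the DOX-positive bars and 42.0 to 44.7% of the DOX-negative bars, and the purple and red parts for IRF7 and BATF2 are thinner in the DOX-positive bars.

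Ratios of 2 genes within a library need no scaling between libraries. The IRF1 to IRF2 ratio was 3.02, 2.82 and 2.69 in DOX-positive libraries, against 3.64, 3.29 and 3.31 in DOX-negative libraries, so the activator exceeded the repressor in each library and by less in the DOX-positive ones (log2 difference -0.26). The IRF7 to IRF3 ratio was 0.59, 0.59 and 0.62 in DOX-positive libraries, against 1.13, 1.06 and 1.13 in DOX-negative libraries (log2 difference -0.89). Per deposited length, IRF7 was thus the less abundant of that pair in DOX-positive cells and the more abundant in DOX-negative cells. Its place above IRF3 in DOX-negative cells rests on those lengths, 2612 bases for IRF7 and 3794 for IRF3. By reads IRF3 stood above IRF7 there too, with 3976, 6065 and 3420 reads against 3099, 4434 and 2651. IRF3 also shares bases with BCL2L12, as described above. The IRF9 to STAT2 ratio was 0.0103, 0.0112 and 0.0101 in DOX-positive libraries and 0.00869, 0.011 and 0.00802 in DOX-negative libraries, with overlapping ranges (log2 difference 0.20). The level of this ratio is uncertain, because IRF9 may have lost reads to its overlap with AL136295.5, as described above. The exact two-sided permutation test gave p = 0.1, 0.1 and 0.3 for these 3 ratios (adjusted over the 3, p = 0.15, 0.15 and 0.3), and 0.1 is the smallest p that 3 against 3 libraries allow.

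**Figure D4:**
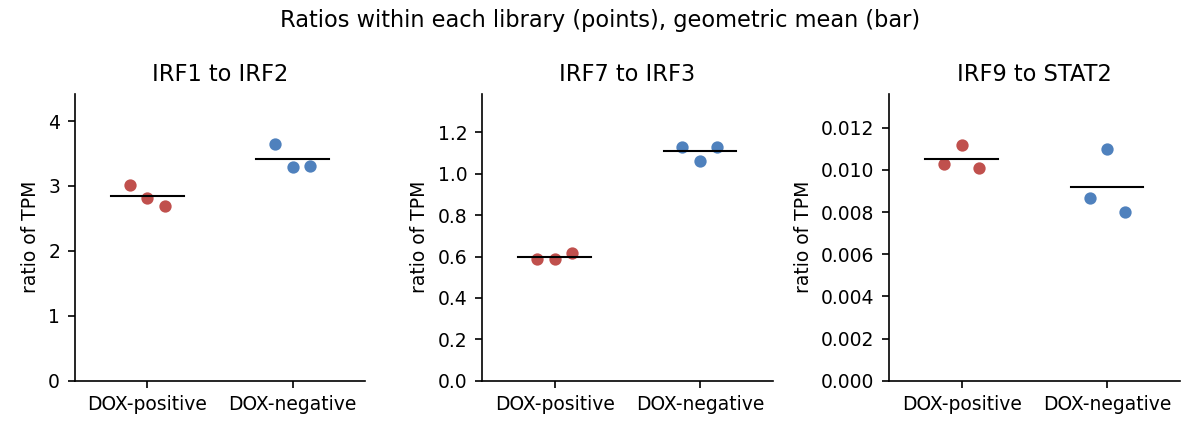
Ratio of TPM of each gene pair in every library (points) with the geometric mean (bar), DOX-positive left of DOX-negative; vertical axes start at 0. The IRF7 to IRF3 ratio lies between 0.59 and 0.62 in DOX-positive libraries and between 1.06 and 1.13 in DOX-negative libraries, whereas the IRF9 to STAT2 ratios overlap. The level of the IRF9 to STAT2 ratio is subject to the overlap of IRF9 with AL136295.5.

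Among 10 genes from the interferon receptors to the STATs, 6 fell and 4 rose in DOX-positive cells. Over all genes tested 28.9% were called lower and 27.6% higher, and these shares also apply to the lists below. IFNGR1, which encodes the receptor chain that binds IFN-gamma, read 17.3, 16.8 and 17.0 CPM in DOX-positive libraries, against 38.5, 38.1 and 41.1 CPM in DOX-negative libraries (log2 fold change -1.21). STAT2, the partner of IRF9 in ISGF3, read 164, 163 and 163 CPM in DOX-positive libraries, against 302, 310 and 299 CPM in DOX-negative libraries (log2 fold change -0.89). JAK1 rose, with 243, 252 and 251 CPM in DOX-positive libraries and 159, 154 and 166 CPM in DOX-negative libraries (log2 fold change 0.64). The edgeR adjusted p was 2.74e-13, 4.63e-13 and 1.43e-10 for these genes.

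Of 16 sensors, adaptors and kinases that lead to IRF3, IRF5 and IRF7, 7 fell and 5 rose, while 4 did not pass. Their median on the log2 scale was -0.02, against -0.04 for all genes tested. IRAK4 and IRAK1, kinases of the MYD88 route, rose by 1.03 and 0.63 on the log2 scale (edgeR adjusted p = 4.03e-12 and 6.66e-11). DDX58, which encodes the RNA sensor RIG-I, fell by 0.64 (edgeR adjusted p = 6.39e-11). TBK1, the kinase of IRF3, averaged 46.6 ± 0.75 CPM in DOX-positive cells and 52.7 ± 2.3 CPM in DOX-negative cells, a log2 fold change of -0.18.

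Among 12 DNA-binding partners, 9 were tested, and 3 rose and 4 fell, while 2 did not pass. IKZF1 (Ikaros), among those that fell, averaged 0.04 CPM in DOX-positive cells and was kept by the filter through its DOX-negative libraries alone, and without it 3 fell. SPI1 (PU.1) and SPIB, the ETS partners of IRF4 and IRF8 in blood cells, stayed under 0.1 CPM in both group means, and BATF had 0 reads. ETS1, another ETS factor, rose by 0.96 on the log2 scale to 284 ± 5.9 CPM in DOX-positive cells, against 146 ± 2.4 CPM in DOX-negative cells. IKZF3 (Aiolos), a lymphoid zinc finger factor, averaged 10.3 ± 0.38 CPM in DOX-positive cells and 4.73 ± 0.27 CPM in DOX-negative cells, and JUNB, an AP-1 subunit, fell by 0.33 on the log2 scale. The edgeR adjusted p for ETS1, IKZF3 and JUNB was 3.01e-13, 8.5e-10 and 1.73e-07.

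Of 12 cofactors and enzymes that act on IRF proteins, 6 fell and 5 rose, while 1 did not pass. The 3 genes of the IRF2-binding corepressors all fell, IRF2BP2 by 0.72, IRF2BP1 by 0.48 and IRF2BPL by 0.20 on the log2 scale. IRF2BP2 read 112, 109 and 110 CPM in DOX-positive libraries, against 181, 180 and 184 CPM in DOX-negative libraries (edgeR adjusted p = 8.52e-12). TRIM21, a ubiquitin ligase with IRF substrates, fell by 0.51 and MDM2, the ubiquitin ligase of p53, rose by 0.36 (edgeR adjusted p = 3.16e-09 and 7.57e-08). IRF2BP1 and IRF2BPL were added on seeing their values.

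Genes that IRF proteins are known to regulate were lower in most cases. Of 20 IRF1-regulated genes 19 were tested, of which 17 fell and 2 rose (28.9% and 27.6% over all genes tested). The list's median stood at -0.94 on the log2 scale. CXCL10, among those that fell, averaged 0.06 CPM in DOX-positive cells and 0.46 CPM in DOX-negative cells and was kept by the filter through its DOX-negative libraries alone, and without it 16 of 18 fell, with a median of -0.93. CIITA, the regulator of MHC class II genes, read 21.5, 22.7 and 22.5 CPM in DOX-positive libraries, against 80.8, 78.7 and 77.9 CPM in DOX-negative libraries (log2 fold change -1.83, edgeR adjusted p = 4.92e-16). BST2 (tetherin) and TNFSF10 (TRAIL) fell by 2.74 and 2.11 on the log2 scale. The 2 that rose were the checkpoint ligand genes CD274 (log2 fold change 0.57) and PDCD1LG2 (0.91), picked out with their values known.

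All 24 ISGF3-regulated genes fell (median -1.63 on the log2 scale) and 0 rose (edgeR adjusted p under 0.05). Over all genes tested 28.9% were called lower. DESeq2 and limma-voom also gave 24 and 0 for the list, as did an unadjusted edgeR p under 0.05. MX1, a dynamin-like antiviral GTPase, read 50.1, 49.9 and 51.7 CPM in DOX-positive libraries, against 157, 162 and 162 CPM in DOX-negative libraries (log2 fold change -1.66). OASL and MX2 fell by 2.24 and 2.38 on the log2 scale. The genes in these lists were chosen with earlier results of these data known, so their directions are not independent evidence.

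The elements themselves are shown for BST2, TNFSF10 and MX1, the named target genes with an ISRE match in their RefSeq windows, with the match in capitals, 5 bases on either side and each sequence on the strand where the match reads from GAAA to GAAA (GRCh38.p14).
BST2, chr19:17405746-17405765, minus strand: tctggGAAACTGAAActgaa
BST2, chr19:17405740-17405759, minus strand: aaactGAAACTGAAAaccta
TNFSF10, chr3:172523603-172523622, plus strand: ggaggGAAACTGAAAgaagc
MX1, chr21:41420564-41420583, plus strand: gaaatGAAACCGAAActgaa
MX1, chr21:41431849-41431868, minus strand: tcacgGAAAGAGAAAcagag
The BST2 matches overlap each other and begin 130 and 124 bases before the start. Of the IRF1-regulated genes in the table, 9 of 10 held an ISRE match in at least 1 window, as did 14 of 19 ISGF3-regulated genes, where 4.38% of all 27305 genes with a window did. These genes are textbook ISRE genes, and a match is a description of letters and not of binding.

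Interferon genes, among them outputs of IRF3, IRF5 and IRF7, were barely detected. Of 20 type I and type III interferon genes, 7 had 0 reads in all libraries, which allows up to 3 reads or between 0.0204 and 0.0328 CPM in each, and 3 (IFNA1, IFNE and IFNK) passed the filter. IFNA1 has a near-identical copy, IFNA13, and its count is uncertain. Of those 3, 0 rose and 0 fell with edgeR, DESeq2 and limma-voom, and also at an unadjusted edgeR p under 0.05. IFNB1 had 3, 2 and 0 reads in DOX-positive libraries and 6, 10 and 6 reads in DOX-negative libraries. IFNL1, a type III interferon gene, had 4, 10 and 6 reads in DOX-positive libraries and 22, 38 and 8 reads in DOX-negative libraries. IFNB1 and IFNL1 were picked out with their values known.

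**Figure D5:**
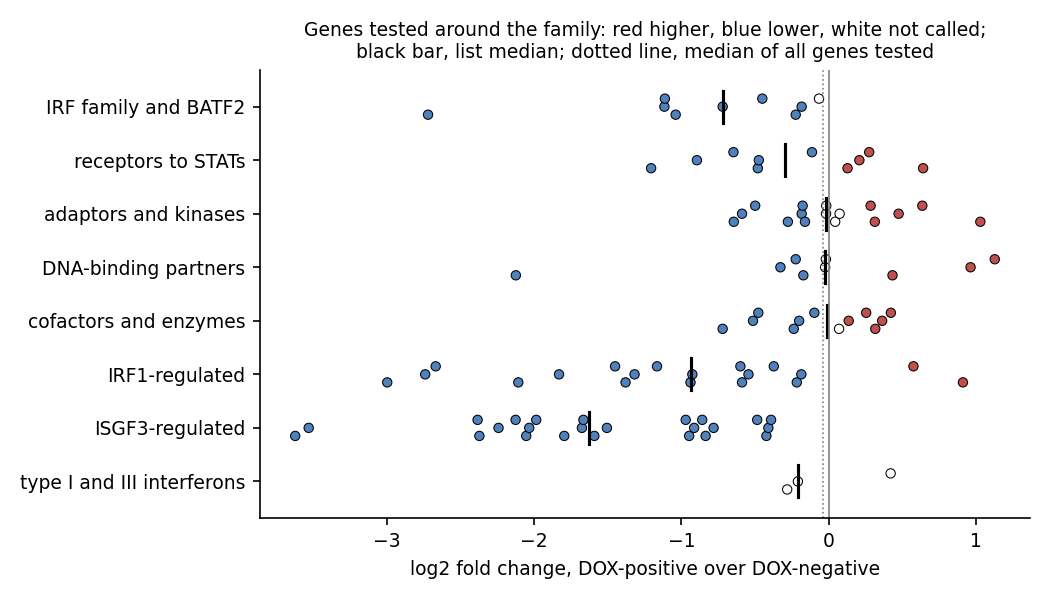
Log2 fold change, DOX-positive over DOX-negative, of each tested gene in the family and in 7 lists around it (red, higher; blue, lower; white, not called by edgeR); black bars mark list medians and the dotted line the median of all genes tested. The family (IRF4 included) and the IRF1- and ISGF3-regulated lists have medians of -0.72, -0.94 and -1.63, and the adaptor, partner and cofactor lists have medians near 0.

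By closeness over the 6 libraries (Euclidean distance of log2 CPM centred on each gene's mean, among 9758 other genes with a mean of at least 10 CPM), the genes nearest to IRF1 were DENND1B, B4GALT6, BTN3A2, MGAT5B and SLC20A1, at distances of 0.06 to 0.07. Their log2 fold changes ran from -0.49 to -0.42. Nearest to IRF7 were GPR161, PRKCA, SOGA1, ZNF302 and CARMIL2, at 0.05 to 0.09 and with log2 fold changes from -1.13 to -1.06. Nearest to IRF9, at 0.11 to 0.26, were GOLGA8B, SDHAP3, RSKR, SNHG26 and PGM5P2, of which GOLGA8B, SDHAP3 and PGM5P2 have near-identical copies and uncertain counts. With 2 groups of 3 libraries this measure mostly ranks genes by the size of the group difference.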

How the data were processed

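The authors deposited raw whole-number counts of reads per gene in each library and the length of every gene. Per the submitters' processing notes, GRCh38.p7, DESeq2 1.24.0, STAR 2.7.9a and CASAVA 1.8.2 were used, without a stated role. The counting tool, gene annotation and strand setting were not given in the sources used here. Groups and replicate numbers came from sample titles. Counts were tested with edgeR 4.0.16 (R 4.3.3; quasi-likelihood, group only, TMM, default filterByExpr, minimum count 10, minimum total 15) over 24695 genes, with Benjamini-Hochberg adjustment and a threshold of 0.05. Intervals are 95%, from the fold change, its F statistic and the total (prior plus residual) degrees of freedom of the edgeR fit. CPM use TMM-scaled library sizes. TPM were computed from the deposited counts and lengths. The code was tested on simulated data. The symbol MB21D1 was matched to CGAS by its older name. No 2 replicates agreed within sampling noise (chi-square per degree of freedom 6.40 to 20.8 within groups and 214 to 285 between groups). The labels speak of triplicate cultures only, and p-values reflect only how far these cultures vary, which may be technical. Positions come from GENCODE 29 on GRCh38, and sequences from RefSeq (GRCh38.p14). Members, lists and tests were chosen with earlier results of these data known. Besides the members, the text names up to 3 genes per list with the smallest p among those past the threshold, genes beside or overlapping a member, and the 5 genes nearest to IRF1, IRF7 and IRF9. Exceptions are marked. TBK1 is given as the kinase of IRF3 and was chosen after its value was seen. Figures were drawn with matplotlib 3.10.9. Results for some genes are not reported here.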

Additional observations from a re-analysis of the deposited data

How the results depend on the processing

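The alternatives were 3 other scalings (library size alone, upper quartile and the size factors of DESeq2), 2 other filters (none, or 1 CPM or more in 3 libraries), 2 other tests (limma-voom and the Wald test of DESeq2), the replicate block and the omission of each library. Of the members, IRF1, IRF2, IRF3, IRF7, IRF8, IRF9 and BATF2 kept their direction and their call under all 14 alternatives. Their log2 fold changes ranged from -0.59 to -0.38, -0.33 to -0.14, -0.37 to -0.19, -1.26 to -1.06, -1.26 to -1.03, -0.86 to -0.55 and -1.18 to -0.98 in that order. IRF4 kept its call in the 13 that tested it, but its log2 fold change ran from -4.11 without DOX-positive replicate 2 to -2.20 without DOX-positive replicate 1. IRF5 was called lower with library size alone (-0.21) and had the opposite sign (0.0256) when DOX-positive replicate 1 was omitted. Over the omitted libraries its values spanned -0.14 to 0.03. Library size alone gave 4689 genes higher and 9579 lower, against 6825 and 7132 with TMM. The count of interferon genes called became 1 without a filter and 1 to 2 with a library left out, when IFNL1 or IFNL3, both lower, passed the filter. The ratios kept their direction under each alternative run. Same-numbered libraries of the 2 groups deviated together with correlations of -0.07, -0.03 and 0.01, so no pairing by number was seen. A check of this kind cannot show that the libraries were unpaired. With the replicate block, 13503 genes were called against 13957 without it, and 8 family members in both, among them IRF4, which had to differ.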

Other observations

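Several protein-coding genes beside members that fell were not called lower. Over all genes tested 28.9% were called lower, so that outcome is the more common one for any gene. Library size alone would move the values below by a median of -0.14. On chromosome 19, SCAF1 and PRMT1, on either side of IRF3, had log2 fold changes of 0.23 and 0.13. COX4I1, the left neighbour of IRF8, rose by 0.41 and EXOC2 beside IRF4 by 0.17 on the log2 scale. TNPO3, beside IRF5, which was not called, rose by 0.20. ARL2 beside BATF2, SLC22A5 beside IRF1 and DUSP22 beside IRF4 did not pass (0.00, -0.04 and 0.03). PHRF1, left of IRF7, had a log2 fold change of 0.09 (edgeR adjusted p = 0.0383), and CDHR5, right of it, fell by 0.80 (edgeR adjusted p = 0.00222) with 0.65 CPM in DOX-positive cells and 1.12 CPM in DOX-negative cells on average. RNF31 and REC8, on either side of IRF9, fell by 1.12 and 0.94 on the log2 scale (edgeR adjusted p = 0.0141 and 4.87e-05). RNF31 averaged only 0.16 CPM in DOX-positive cells and 0.34 CPM in DOX-negative cells. AL136295.5 overlaps the RNF31 locus on the same strand, so the count of RNF31 is uncertain too. REC8 read 1.30, 1.61 and 1.58 CPM in DOX-positive libraries and 3.07, 3.23 and 2.29 CPM in DOX-negative libraries.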
